A study of Mus musculus with 6 samples.

Results

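Interferon-responding monocytes were the infiltrating monocytes of the inflamed mouse spinal cord with the most RNA of 5 interferon-induced genes. They were chosen in 2 steps from 7121 cells of 4 libraries of mice with experimental autoimmune encephalomyelitis (EAE). A base gate kept cells with at least 10 unique molecular identifiers (UMIs, counts of single captured transcripts) summed over the monocyte genes Ccr2, Ly6c2, Fn1, F10, Tgfbi, S100a4 and Plac8. The same gate allowed at most 2 UMIs summed over the microglial genes Tmem119, P2ry12, Siglech, Sparc and Olfml3, and it held 5106 cells. Each of these got a score, the mean over Ifit1, Ifit2, Ifit3, Rsad2 and Cmpk2 of the natural logarithm of 1 plus the counts per 10000. The top 10%, 510 cells, are the members, and the other 4596 base-gate cells are the comparison. The whole series held 9079 cell barcodes. The summed UMIs of members ran from 150240 in EAE ROS- 1 to 2041888 in EAE ROS+ 2, out of library totals from 11909166 to 23407825.

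The study measured RNA in single CD11b+ cells, the myeloid cells of the spinal cord. All mice were C57BL/6 and 10 weeks old, and all cells were stained with 10 µM DCFDA, a dye that fluoresces once reactive oxygen species (ROS) oxidise it, and then sorted by that signal. The groups were EAE ROS+ (2 libraries) and EAE ROS- (2 libraries), both at disease onset after MOG35-55, a myelin peptide, and healthy ROS- (2 libraries), which entered no comparison of monocytes. CD11b sorting limits every library to myeloid and other CD11b-bearing cells, and the labels do not say whether libraries of a group came from separate or pooled animals, so p-values measure only the spread between these libraries.

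Type I interferons are small secreted proteins that cells make on sensing viral or misplaced nucleic acid. They bind a common receptor whose kinases activate transcription factors of the STAT family, which join IRF9 as the complex ISGF3 and bind a DNA element, the interferon-stimulated response element (ISRE). The genes switched on this way include Ifit RNA-binding proteins, the radical SAM enzyme viperin (Rsad2) and its genomic neighbour Cmpk2, a nucleotide kinase. Interferon gamma acts through a different receptor, and many genes answer to both. In EAE, interferon beta is a long-studied modulator of disease, and it is a treatment of multiple sclerosis.

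The promoters of 5 of the genes that mark these cells are shown because they carry the letters of an ISRE-type repeat. Each line gives the 250 bases before the start of the gene on its own strand, from RefSeq on GRCm38.p6, and capitals mark every match to GAAANNGAAA or, read from the other strand, TTTCNNTTTC. Ifit1 lies at chr19:34640639-34640888 on the plus strand, Ifit3 at chr19:34583279-34583528 on the plus strand and Rsad2 at chr12:26456453-26456702 on the minus strand. Isg15 lies at chr4:156200819-156201068 and Cxcl10 at chr5:92348890-92349139, both on the minus strand.
Ifit1: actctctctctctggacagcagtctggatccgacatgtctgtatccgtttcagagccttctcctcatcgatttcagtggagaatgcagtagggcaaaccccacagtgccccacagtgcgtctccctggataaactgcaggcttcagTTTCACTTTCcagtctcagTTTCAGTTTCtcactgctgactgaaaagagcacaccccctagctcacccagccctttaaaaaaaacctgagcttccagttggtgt
Ifit3: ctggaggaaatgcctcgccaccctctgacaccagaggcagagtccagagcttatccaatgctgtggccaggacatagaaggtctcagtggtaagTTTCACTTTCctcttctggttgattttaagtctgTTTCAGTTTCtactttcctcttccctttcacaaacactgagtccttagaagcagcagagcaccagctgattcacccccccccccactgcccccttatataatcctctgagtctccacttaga
Rsad2: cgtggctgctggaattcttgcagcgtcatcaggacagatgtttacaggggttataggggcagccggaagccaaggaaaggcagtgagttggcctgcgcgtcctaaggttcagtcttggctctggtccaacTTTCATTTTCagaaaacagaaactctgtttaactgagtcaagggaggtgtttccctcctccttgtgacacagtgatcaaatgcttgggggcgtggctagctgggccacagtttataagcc
Isg15: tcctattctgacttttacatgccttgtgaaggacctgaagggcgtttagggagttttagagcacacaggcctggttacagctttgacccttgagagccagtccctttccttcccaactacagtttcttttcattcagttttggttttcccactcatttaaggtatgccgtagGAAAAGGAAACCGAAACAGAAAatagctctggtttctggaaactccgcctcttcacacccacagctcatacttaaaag
Cxcl10: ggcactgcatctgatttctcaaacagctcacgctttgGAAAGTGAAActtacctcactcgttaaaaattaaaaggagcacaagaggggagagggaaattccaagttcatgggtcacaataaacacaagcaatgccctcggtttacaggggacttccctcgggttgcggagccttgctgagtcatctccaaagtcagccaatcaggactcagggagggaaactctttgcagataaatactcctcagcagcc
Ifit1 and Ifit3 each held 2 matches, Isg15 held 3 that overlap, and Rsad2 and Cxcl10 held 1 each. The matches nearest to the start began 85 bases before it in Ifit1 and 66 in Isg15, and that of Cxcl10 began 213 bases before it. The score genes Ifit2 and Cmpk2 had no match in their windows.

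Among 56 genes at least 2-fold higher in members in every library (described below), 44 had a RefSeq window of 300 bases, from 250 before to 50 after the start. Of these, 25 (56.8%) held the motif, against 1079 of 27025 genes (3.99%) with a window of that length in the whole table. Several of the 25 belong to families of related sequence, such as the p200, Ifit, Phf11 and Trim30 genes, so they are not independent. The paralogs Ifit3 and Ifit3b, at chr19:34583531-34588731 and chr19:34607970-34613401 in GENCODE M21 on GRCm38, have the motif with the same letters, and reads could be split between such near-identical genes. Counts of the Ifit, Phf11, Slfn, Oas, Gbp, Trim30 and p200 genes are uncertain to that extent.

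The members carried the score as several genes at once. Of the 510 members, 132 (25.9%) had UMIs of all 5 score genes, 145 (28.4%) of 4, 181 (35.5%) of 3 and 52 (10.2%) of 2. Among the 4596 others, 2705 (58.9%) had none and 1290 (28.1%) had 1. The median member held 9 UMIs of the score genes, with a range of 3 to 112. These values chose the members and are given as a description.

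The members are a range of the score set by a cut, and whether they are a separate type was not tested. The lowest member scored 0.6364, with 0.6375 and 0.6384 next, and the highest cells outside scored 0.6359, 0.6348 and 0.6346. Within 0.1 of the cut lay 86 members and 109 other cells. The median member scored 1.07 and the highest 3.33, while 53.0% of base-gate cells scored 0.

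Rsad2, which encodes the antiviral enzyme viperin, averaged 654 ± 60.7 CPM (counts per 1000000 summed UMIs) in members and 23.5 ± 5.96 CPM in other base-gate cells (SD, n = 4 libraries). Ifit1 averaged 496 CPM in members and 27.0 CPM in others, and Ifit3 440 CPM in members and 23.1 CPM in others. Ifit2 averaged 299 CPM in members and 17.1 CPM in others, and Cmpk2 129 CPM in members and 4.34 CPM in others. Ifit1 UMIs were found in 84.9% to 93.4% of members per library and in 14.4% to 15.7% of others. Microglial-gate cells of the EAE ROS- libraries, at lower depth, had an Ifit1 UMI in 15.6% and 16.3% of cells. Some of those cells also reached the members' score, so they give no clean background, and in the others free RNA and expression were not told apart.

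The monocyte label was checked against genes the gate did not use. Fcgr1, the high-affinity IgG receptor, and Ms4a6c, a gene of the Ms4a family, were present, and Lyz2, the myeloid lysozyme, lay between 5824 and 14581 CPM in members of the 4 libraries. Of 12 such monocyte/macrophage markers described, 5 were higher in members in every library and 3 were lower, against 20% and 23.2% of all genes at 50 CPM or more in either set. Ms4a4c, at 1.61 ± 0.33 on the log2 scale (SD, n = 4 libraries), is also on the list of antiviral effectors and is not independent of the score. Lyz2 (-0.46), the lipopolysaccharide co-receptor Cd14 (-0.41) and the growth factor receptor Csf1r (-0.22) were lower in every library. Within the gate genes, S100a4 (0.91) and Plac8 (0.82) had the highest log2 ratios and the matrix gene Fn1 (-0.66) the lowest.

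Markers of other cell types were uneven between libraries. Summed dendritic cell markers ran from 17.7 to 526 CPM in members and from 16.7 to 377 CPM in others, with Xcr1 at 0 in members and both highest sums of members in EAE ROS-. Summed natural killer cell markers ran from 0 to 253 CPM in members and from 2.13 to 154 CPM in others. Ncr1, Klrb1c and Prf1 were at 0 in members, and the 253 CPM, in EAE ROS- 1, came from Klrd1 alone. T cell markers ran from 0 to 50.9 CPM in members and from 1.77 to 79.5 CPM in others, with Cd4, Cd8a and Trac at 0 in members. Summed neutrophil markers reached 2363 CPM in members of EAE ROS+ 2 and 86.5 CPM at the lowest, against 138 to 1638 CPM in others, with Ly6g at 0 in members. Plasmacytoid dendritic cell markers, from cells known for high interferon production, summed to 45.7 to 79.9 CPM in members and 34.0 to 57.4 CPM in others, with Klk1 and Ly6d at 0. Microglial markers outside the gate summed to 291 to 666 CPM in members and 354 to 796 CPM in others, and B cell markers to at most 1.76 CPM in members and 4.24 CPM in others. Without 11 members that held 10 or more UMIs of the dendritic, natural killer or T cell lists or 50 or more of neutrophil markers, 55 of the 2-fold higher genes described below were found in place of 56.

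Members were somewhat shallower than the cells they were set against. The median member held 8078 and 4864.5 UMIs in the EAE ROS+ libraries, against 8893.5 and 5479 for the median other cell. For EAE ROS- libraries it was 6425 and 5675.5 UMIs in members, against 7287 and 6465.5 in others. Doublet calling marked 6 of 7121 cells (0.0843%), which is too few for the caller to have worked, so no cell was removed and doublets remain possible. Libraries shared 42 barcodes, of which 6 belonged to members.

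Members were found in all 4 EAE libraries, and EAE ROS+ 2 stood apart. There were 61 members among 1329 base-gate cells in EAE ROS+ 1 (4.59%, exact Clopper-Pearson 95% interval 3.53% to 5.86%) and 332 among 2099 in EAE ROS+ 2 (15.8%, 14.3% to 17.4%). EAE ROS- 1 held 23 among 620 (3.71%, 2.37% to 5.51%) and EAE ROS- 2 held 94 among 1058 (8.88%, 7.24% to 10.8%). These intervals cover counting error only. EAE ROS+ 2 alone gave 65.1% of all members, and both libraries numbered 2 together gave 426 members (83.5%).

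A difference of this share between the ROS gates was not larger than the spread between libraries. It averaged 10.2% ± 7.94 in EAE ROS+ and 6.30% ± 3.66 in EAE ROS- libraries (SD, n = 2 each), a difference of 3.91 percentage points. The exact two-sided permutation test over libraries gave p = 0.667, where the smallest p it allows is 0.333. Within a replicate number the difference was 0.880 points for number 1 and 6.93 points for number 2, and without EAE ROS+ 2 it was -1.71 points. Thinning every cell to 2000 UMIs gave shares of 5.57% and 15.2% in EAE ROS+ and 4.84% and 8.32% in EAE ROS-, so EAE ROS+ 2 stood highest at equal depth too.

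**Figure D1:**
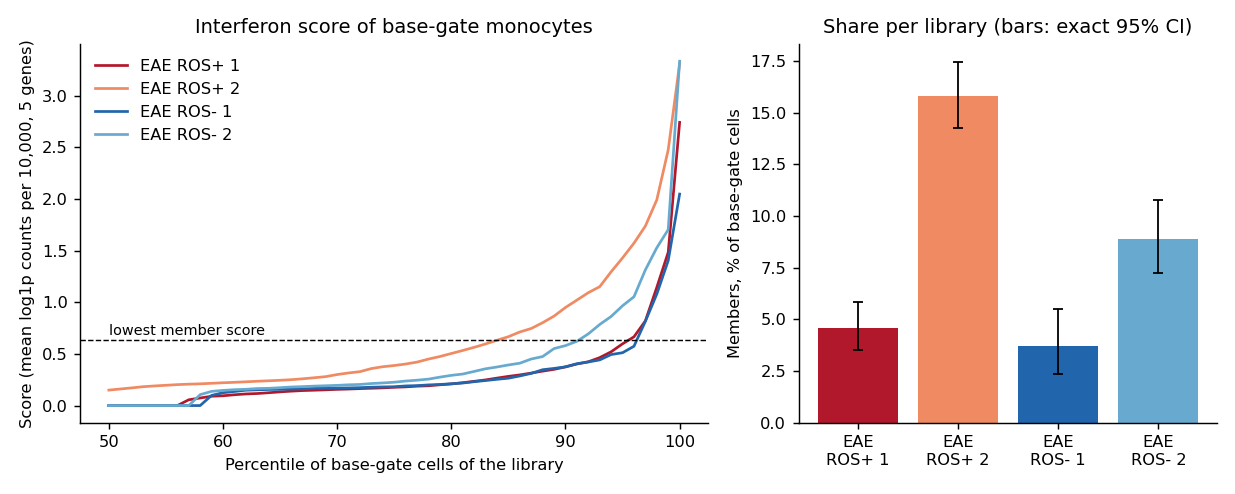
Left, the score of base-gate monocytes (mean log1p counts per 10000 of 5 genes) by percentile within each EAE library, with the lowest member score as a dashed line. Right, members as a percent of base-gate cells per library, with exact 95% intervals, where EAE ROS+ 2 stands at 15.8% and the other libraries at 3.71% to 8.88%.

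Beyond the 5 score genes, members carried a broad set of interferon-induced RNA. Of 2568 genes with at least 50 CPM in either set, 56 (2.18%) were at least 2-fold higher in members in every library, and 0 (0%) were at least 2-fold lower in every library. Every gene of the chosen cells counts as used by the choice, so these ratios are a description with no test. By any size, 514 genes (20%) were higher and 595 (23.2%) lower in members in every library, and the median gene stood at -0.05 on the log2 scale. Ratios are of CPM with 1 UMI added per sum, scaled to the totals.

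The Ifit genes and Mx1 led. I830012O16Rik, now named Ifit3b, stood at 65.5, 93.1, 146 and 72.0 CPM in members of EAE ROS+ 1, EAE ROS+ 2, EAE ROS- 1 and EAE ROS- 2, against 1.98, 4.09, 3.13 and 4.14 CPM in the others (log2 ratio 4.70 ± 0.58, SD, n = 4). Gm14446, now Ifit1bl1, a further Ifit relative, had a log2 ratio of 4.51. Mx1, a GTPase that blocks influenza virus in strains with an intact gene, stood at 67.3, 119, 140 and 96.6 CPM in members and 6.51, 14.1, 7.59 and 7.54 CPM in others (3.54 ± 0.45). For these genes the sets did not overlap, and the lowest member value was several times the highest value of the others.

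Isg15, a ubiquitin-like protein attached to other proteins under interferon, was the most abundant of the 20 highest genes. It stood at 1574, 2045, 1910 and 2057 CPM in members, against 215, 509, 268 and 433 CPM in others (log2 ratio 2.49 ± 0.43). Usp18, the protease that removes Isg15 and damps the type I receptor, stood at 207, 260, 293 and 263 CPM in members and at 26.5, 41.7, 26.1 and 29.9 CPM in others (3.05 ± 0.35). The members of the 4 libraries were close to each other in both genes, although their shares of members were not. The same cut on the score served all libraries, and both genes follow the score (mean Pearson's r 0.53 and 0.50). This likeness is therefore partly set by the choice of members.

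The rest of the 20 highest were of the same kind by name. Oasl1, an OAS-like protein that limits Irf7 translation, had a log2 ratio of 3.12, the exonuclease Isg20 2.65, the schlafen genes Slfn4, Slfn5 and Slfn8 2.64, 2.21 and 1.88, and Oas3, a sensor that makes oligoadenylates, 2.13. Nt5c3, a nucleotidase, stood at 2.27, D14Ertd668e, now Phf11d, at 2.31 and Phf11, now Phf11a, at 2.15. Members of the p200 family of DNA-binding proteins were Pydc3 (now Ifi208, 2.79), Gm4955 (now Ifi206, not on the p200 list, 2.34), Pyhin1 (now Ifi209, 2.02), Mndal (1.92) and Pydc4 (now Ifi213, 1.90). The chemokine Cxcl11 (2.16 ± 0.86) was the most uneven of the 20 across libraries.

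**Figure D2:**
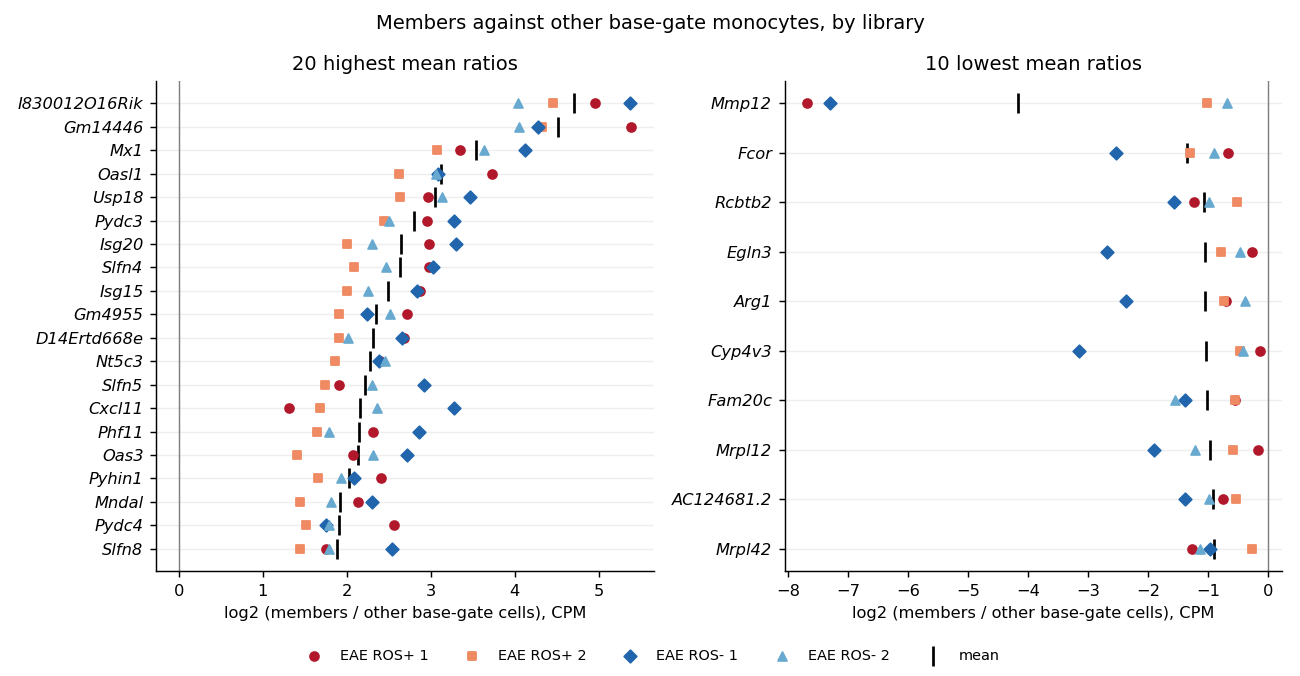
Log2 ratio of CPM in members over other base-gate monocytes for the 20 genes with the highest and the 10 with the lowest mean among genes with the same direction in all libraries, with 1 point per EAE library and a bar for the mean. All 20 high genes have means from 1.88 to 4.70, and the mean of Mmp12 rests on 2 libraries with 0 UMIs in members and depends on the added UMI.

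The signalling genes above the response differed less than the response itself. The receptor and kinase genes Ifnar1, Ifnar2, Ifngr1, Ifngr2, Jak1 and Jak2 had log2 ratios from -0.33 to 0.22. Of these 6, 0 were higher and 2 lower in members in every library, against 20% and 23.2% of all described genes. The 2 were Ifngr1 and Ifngr2, the interferon gamma receptor chains. Of 19 interferon genes, 18 had 0 UMIs in members, and the remaining one, Ifng, had 9 UMIs in members, all in 1 cell of EAE ROS- 2. Interferon RNA was therefore not detectable in members at this depth apart from Ifng in that cell. In others, Ifng had 500 UMIs, most of them in EAE ROS- 1, where it stood at 105 CPM and lay in 26 of 597 cells.

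All 11 STAT and IRF factors described were higher in members in every library, against 20% of all described genes, and 2 of them by 2-fold. Irf7, which amplifies type I interferon production, stood at 777, 860, 1178 and 792 CPM in members and at 230, 369, 235 and 307 CPM in others (log2 ratio 1.67 ± 0.49). Stat2, a subunit of ISGF3, averaged 77.2 CPM in members and 28.0 CPM in others (1.45 ± 0.15). The subunit Irf9 had a lower ratio, 0.42. Batf2 (0.84) and the myeloid factor Irf8 (0.62) lay between Stat2 and Irf9.

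Sensors of viral nucleic acid were higher in members in every library, all 8 of those described, against 20% of all described genes. Their median log2 ratio was 1.19. Ddx58 (RIG-I) and Ifih1 (MDA5), which detect RNA in the cytosol, averaged 80.9 and 117 CPM in members against 22.4 and 34.0 CPM in others (1.88 ± 0.39 and 1.77 ± 0.13). Eif2ak2 (PKR), a kinase that stops translation on double-stranded RNA, had a ratio of 1.34, and Zbp1, which senses Z-form nucleic acid, 1.04. The DNA pathway adaptor Tmem173 (STING) stood at 0.35.

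Of 52 antiviral effectors described, 49 were higher in members in every library and 27 by 2-fold, with a median log2 ratio of 1.36. Of all described genes, 20% were higher in every library and 2.18% by 2-fold. Ifitm1, Ifitm2 and Parp10 were higher in 3 of 4 libraries. All 9 genes on the p200 list passed 2-fold in every library (median 1.70), among them Ifi204 (664 CPM in members and 216 CPM in others) and Ifi205 (828 CPM in members and 308 CPM in others). Ifitm3, which blocks virus entry, stood at 4685 CPM in members and 2631 CPM in others (log2 ratio 0.84 ± 0.14), and Ly6e had a ratio of 0.32.

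Guanylate-binding proteins and immunity-related GTPases, which attack vacuoles of intracellular microbes and answer to interferon gamma as well as type I interferon, had a median of 1.02. Of 11 described, 9 were higher in members in every library, against 20% of all described genes. By 2-fold it was 1, Tgtp2 (1.43 ± 0.34), against 2.18% of all described genes. Ifi47 averaged 550 CPM in members and 225 CPM in others, and Gbp2 averaged 1249 CPM in members and 688 CPM in others. Among feedback genes, the kinase inhibitor Socs1 (0.97) was higher in every library and Socs3 (-0.14) lower.

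The chemokines that bind Cxcr3, the receptor of activated T cells, were all higher in members. Cxcl10 stood at 1154, 2283, 1591 and 1374 CPM in members and at 328, 821, 374 and 363 CPM in others (log2 ratio 1.82 ± 0.26). Cxcl11 stood at 56.6, 181, 313 and 160 CPM in members and at 22.7, 56.6, 31.9 and 30.9 CPM in others, and Cxcl9 averaged 933 CPM in members and 533 CPM in others (0.81 ± 0.13). These were the only 3 of 12 described chemokines higher in every library, a share near the 20% of all described genes. Ccl2, the ligand of Ccr2, was higher in 3 of 4 libraries (1.04 ± 1.45), while Ccl5 stood at -0.05 and Ccl6 at -0.57.

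Of 14 inflammatory genes described, 6 were higher and 2 lower in members in every library, against 20% and 23.2% of all described genes. Cd40, a costimulatory receptor and the single one past 2-fold in every library, averaged 210 CPM in members and 90.1 CPM in others (1.22 ± 0.13). Il18 (1.39), the costimulatory ligand Cd86 (0.74) and the interleukin 1 receptor antagonist Il1rn (0.55) were higher. Il1b (-0.14), Tnf (0.19) and Nos2 (0.34) lay near the median gene relative to their spread.

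Genes outside the lists that passed 2-fold in every library are named after their values were seen. They included the lectin-like receptor Klrk1 (1.67), the cyclin Ccnd1 (1.65), the Max partner Mxd1 (1.60), the death-domain adaptor Daxx (1.79), the ubiquitin ligase March5 (1.35), Mitd1 (1.39), Gm4070 (1.48) and A530040E14Rik (1.87). Ccnd1 averaged 81.7 CPM in members and 23.4 CPM in others, but its members stood at 31.9, 39.2, 200 and 56.2 CPM by library. The highest value was that of EAE ROS- 1, which held 23 members. Klrk1 was also highest there, at 293 CPM in members against 51.3 to 70.3 CPM elsewhere. Summed natural killer cell markers of members were highest in that library too, at 253 CPM. That sum was Klrd1 alone, with 38 UMIs in 10 members and 16 of them in 1 cell. The other markers of the list had 0 UMIs in members there. The cell cycle list had 2 genes described, Hmgb2 (-0.13) and Tubb5 (-0.53).

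**Figure D3:**
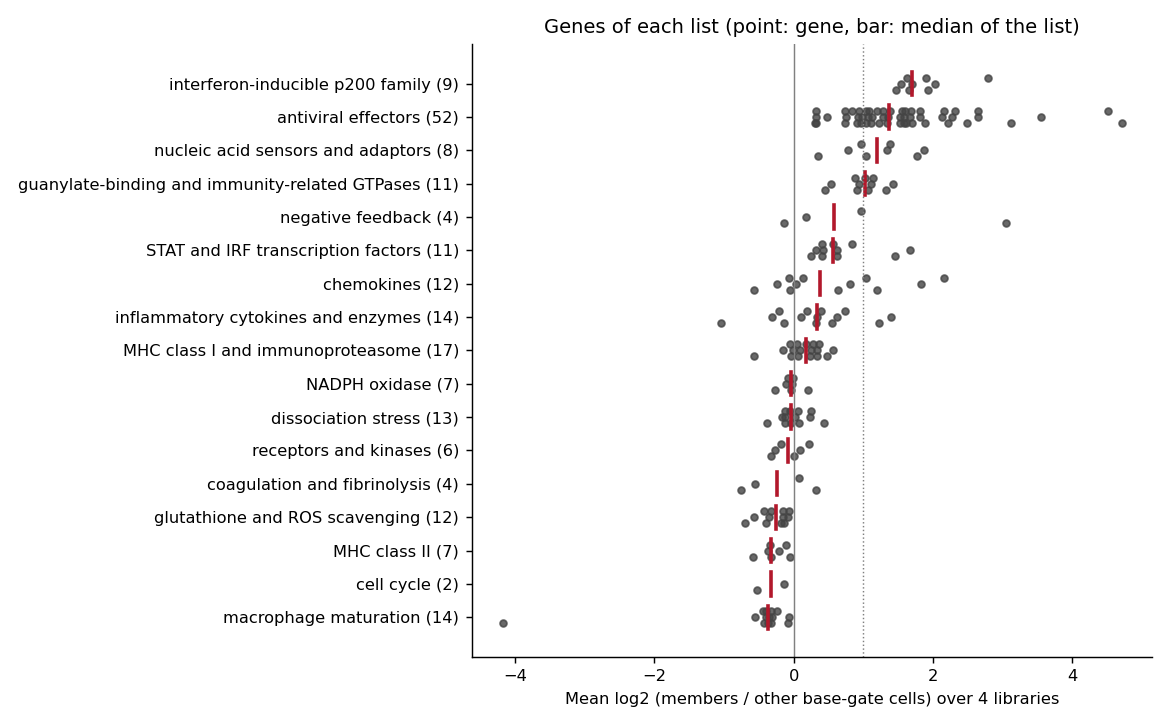
Mean log2 ratio of members over other base-gate monocytes over the 4 EAE libraries for each described gene (point) of each list, with the list's median as a bar and the number of genes in brackets. The 4 lists at the top have medians from 1.02 to 1.70, and the macrophage maturation list has a median of -0.36, with Mmp12 far left.

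Of 17 class I and immunoproteasome genes of antigen presentation, 10 were higher in members in every library, against 20% of all described genes, and 0 by 2-fold, with a median of 0.18 and H2-T23, a nonclassical class I gene, the highest at 0.57. Of 7 class II genes, 0 were higher and 3 lower in every library, against 23.2% of all described genes lower, with a median of -0.33. H2-Ab1 averaged 8161 CPM in members and 10050 CPM in others (-0.33 ± 0.13).

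Of 14 genes of macrophage maturation described, 11 were lower in members in every library, against 23.2% of all described genes, with a median of -0.36. The complement gene C1qa averaged 621 CPM in members and 949 CPM in others (-0.56 ± 0.14), and Apoe, which carries lipid, 7515 CPM in members and 9422 CPM in others (-0.33 ± 0.07). Mmp12, macrophage elastase, had 0, 76, 0 and 50 UMIs in members, which is 0, 37.2, 0 and 87.8 CPM, against 27.7, 75.8, 67.5 and 142 CPM in others. With libraries at 0 set to a floor of 3 UMIs per library, its mean log2 ratio is -1.46, an upper limit. Arg1, which consumes arginine, stood at 1156, 1517, 153 and 1609 CPM in members and at 1884, 2521, 793 and 2097 CPM in others (-1.05 ± 0.90), lower in every library and most so in EAE ROS- 1.

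The other 8 of the 10 lowest genes had mean log2 ratios from -1.35 to -0.91. They were Fcor, Rcbtb2, Egln3 (a prolyl hydroxylase that marks the hypoxia factor HIF for destruction), Cyp4v3, the secretory pathway kinase Fam20c, the mitochondrial ribosome genes Mrpl12 and Mrpl42, and AC124681.2. None was 2-fold lower in all 4 libraries.

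Genes of ROS production and defence were near the median gene. Of 7 NADPH oxidase genes, Ncf4 (0.21) was higher and Cybb, the catalytic subunit, lower (-0.09 ± 0.03) in every library, and the median was -0.04. Of 12 glutathione and ROS scavenging genes, 0 were higher and 4 lower in every library (median -0.25). Among all described genes, 20% were higher and 23.2% lower in every library. The coagulation list had a median of -0.24 and the dissociation stress list, immediate-early genes that tissue digestion can raise, one of -0.04.

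Interferon-induced RNA followed the score across its whole range rather than stepping at the cut. In base-gate cells at score 0, above 0 to 0.3, above 0.3 to the cut, and in members below and above their median score, Isg15 stood at 137, 233, 509, 1223 and 2011 CPM in EAE ROS+ 1. The same ranges gave 380, 498, 902, 1404 and 2767 CPM in EAE ROS+ 2, 182, 336, 572, 1242 and 2424 CPM in EAE ROS- 1, and 293, 467, 1173, 1756 and 2434 CPM in EAE ROS- 2. At score 0 the level was highest in EAE ROS+ 2, the library with the most members, and free RNA in the droplets was not told apart from expression.

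**Figure D4:**
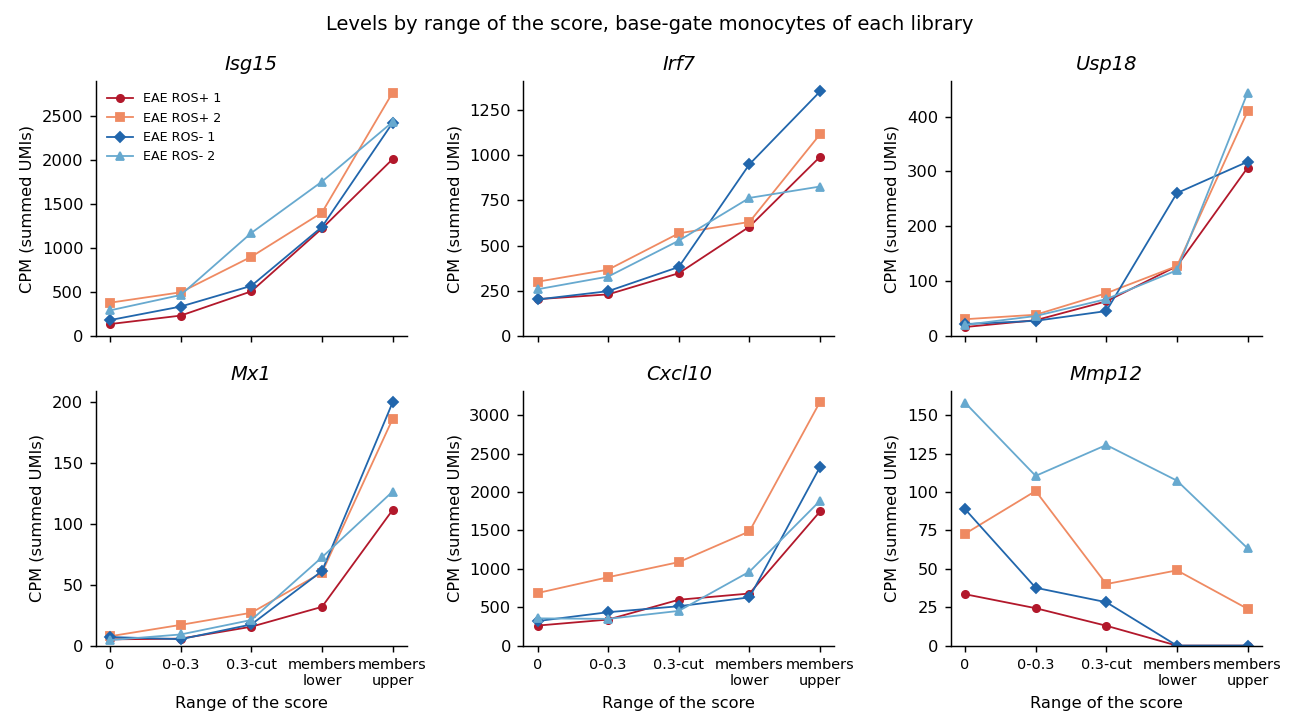
CPM of summed UMIs of 6 genes in base-gate monocytes of each EAE library by range of the score, where the last 2 ranges are the members below and above their median score. Isg15, Irf7, Usp18, Mx1 and Cxcl10 are highest in the last range in all 4 libraries, and Mmp12 is lower in the last range than at score 0.

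Genes most like the score in single cells were nearly all among those above. Over 7615 genes in 5106 cells, the mean over libraries of Pearson's r with the score was highest for Isg15 (0.53, from 0.47 to 0.55), Usp18 (0.50), I830012O16Rik (0.49), Mx1 (0.46), Oasl1 (0.45) and Gm4955 (0.45). Pyhin1, Ifi204, D14Ertd668e and Mndal followed, at 0.42 to 0.38. Cells of a library share its depth and handling, so these are descriptions with no test.

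The ROS gate was the comparison that the choice of members did not use. Within members, EAE ROS+ against EAE ROS- libraries gave 0 genes higher (0%) and 3 lower (0.0596%) of 5033 tested, by edgeR's quasi-likelihood test with Benjamini-Hochberg adjusted p under 0.05. At an unadjusted p under 0.05 there were 85 higher and 120 lower, and DESeq2 called 1 higher and 5 lower. CPM beside these tests are over TMM-scaled totals. The 3 genes were the chemokines Ccl22 and Ccl17 and the cyclin Ccnd2.

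Ccl17, a chemokine of mature dendritic cells that attracts T cells, stood at 0 and 2.94 CPM in members of EAE ROS+, against 77.5 and 296 CPM in members of EAE ROS- (log2 -6.44 ± 0.69 SE, adjusted p = 0.00354 by edgeR). Its 178 UMIs lay in 16 members, and 1 cell of EAE ROS- 2 held 93 of them. Ccl22, its neighbour in the genome and in function, is named after its values were seen. It had 0 UMIs in members of both EAE ROS+ libraries, against 77.5 and 73.6 CPM in EAE ROS- (adjusted p = 0.00222 by edgeR), at least 61.6-fold lower against a floor of 3 UMIs over the gate. Its 51 UMIs lay in 10 members. Both genes belong to the dendritic cell marker list, whose summed level was highest in members of EAE ROS-, so that sum is not independent of them. In EAE ROS- 2 members, Ccl17 had 161 UMIs, Ccl22 had 40 and the list's Cd209a had 11. In EAE ROS- 1 members, Ccl17 and Ccl22 had 11 UMIs each and Cd209a had 28. Other base-gate cells went the same way, with Ccl17 at log2 -4.91 (adjusted p = 0.0788 by edgeR). There Ccl22 had 9 and 15 UMIs in EAE ROS+ and 106 and 428 UMIs in EAE ROS-. All 9 dendritic cell markers tested in those cells, from a list that includes Ccl17 and Ccl22, had negative values. Their median was -4.00, against 0.01 over all genes tested there. Of the 9, 4 were called lower, against 28 of 11580 genes (0.242%).

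Ccnd2, a cyclin of the G1 phase, was spread over more cells, 179 members. It stood at 79.0 and 102 CPM in EAE ROS+, against 634 and 357 CPM in EAE ROS- members (log2 -2.38 ± 0.34, adjusted p = 0.0349 by edgeR). The gates did not overlap. In other base-gate cells it stood at 34.8 and 58.8 CPM in EAE ROS+ and 142 and 152 CPM in EAE ROS- (-1.65, adjusted p = 0.0726), and the difference of the 2 gate differences was -0.62 ± 0.21 and was not called after adjustment (adjusted p = 0.782). The call of Ccnd2 held without each library in turn, but not with the top 10% taken within each library (-2.12, adjusted p = 0.121) or without the top 5% of UMIs (-2.30, adjusted p = 0.0669). Ccl17 was not called with the top 20% (adjusted p = 0.0533), and the log2 value of Ccl17 was -9.37 without EAE ROS+ 2 and -4.97 without EAE ROS- 2. Ccl22 was too low to be tested without EAE ROS- 2. Without the cells that held other cell types' markers, a setting chosen after seeing the data, Ccl17 and Ccl22 were too low to be tested, Ccnd2 was at -2.01 (adjusted p = 0.243) and 0 genes were called.

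Both counts of calls depended on every library. There were 10 higher and 19 lower genes without EAE ROS+ 1, 5 and 17 without EAE ROS+ 2, 11 and 11 without EAE ROS- 1, and 74 and 78 without EAE ROS- 2. The gates did not overlap for 1691 of the 5033 genes (33.6%).

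No gene of the interferon response was called between the gates in members, which does not show that the gates were alike. None of the genes tested on the lists of STAT and IRF factors, sensors, antiviral effectors, p200 genes, GTPases and feedback genes was called in members by edgeR. Isg15 stood at 1673 and 2047 CPM in EAE ROS+ and at 2021 and 2156 CPM in EAE ROS- members (log2 -0.17 ± 0.27, adjusted p = 0.999 by edgeR). Irf7 (-0.29 ± 0.29), Mx1 (-0.25 ± 0.34) and Usp18 (-0.27 ± 0.27) had the same adjusted p. Of 58 antiviral effectors tested, 15 had positive and 43 negative values, with a median of -0.20 against 0.00 over all genes tested. The score genes, which the cut holds alike in both gates, are not read here. The same cut partly holds genes that follow the score, such as Isg15, Usp18 and Mx1 (mean Pearson's r 0.53, 0.50 and 0.46). Likeness of such genes between the gates in members is therefore partly set by the choice of members.

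Other lists had no call either. Of 8 class II genes, all 8 had negative values in EAE ROS+ members, with a median of -0.76. In other base-gate cells all 8 were negative too, with a median of -0.47. Summed dendritic cell markers in members, with Ccl17 and Ccl22 in the sum, stood at 17.7 and 18.1 CPM in EAE ROS+. In EAE ROS- members the sum stood at 526 and 386 CPM. The part of dendritic cell markers in the class II values was not tested. Cd74, the class II chaperone, stood at 18183 and 8934 CPM in EAE ROS+ and at 29102 and 15367 CPM in EAE ROS- members (adjusted p = 0.999 by edgeR). All 7 NADPH oxidase genes had positive values in members, with a median of 0.17, and also in other base-gate cells, with a median of 0.16. Cybb stood at 885 and 717 CPM in EAE ROS+ and 711 and 757 CPM in EAE ROS- members. All 14 glutathione and ROS scavenging genes tested in members had positive values, with a median of 0.34. In other base-gate cells 14 of 20 tested were positive and 6 negative, with a median of 0.11.

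Genes with the smallest p that were not called are given as values. Saa3, an acute-phase protein, stood at 2974 and 1524 CPM in EAE ROS+ and at 310 and 501 CPM in EAE ROS- members (2.44 ± 0.38, adjusted p = 0.067 by edgeR). Ccl2 stood at 781 and 506 CPM in EAE ROS+ and 49.3 and 208 CPM in EAE ROS- members (2.13 ± 0.46, adjusted p = 0.25). Ccl7, a further Ccr2 ligand, stood at 58.3 and 95.1 CPM in EAE ROS+ and 0 and 14.7 CPM in EAE ROS- members (adjusted p = 0.23). For all 3 the EAE ROS+ values lay above both EAE ROS- values. S100a9 stood at 45.2 and 581 CPM in EAE ROS+ and at 0 in both EAE ROS- libraries, but 1 cell held 947 of its 1210 UMIs. Klrd1, a receptor of natural killer cells, had 0 UMIs in EAE ROS+ members and stood at 268 and 36.8 CPM in EAE ROS- members (adjusted p = 0.0784), the TNF receptor adaptor Traf1 was at -1.89 (adjusted p = 0.0784), and Ifitm1 was at 339 and 579 CPM in EAE ROS+ and 3471 and 1165 CPM in EAE ROS- members (adjusted p = 0.23).

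The other base-gate monocytes gave 6 genes higher (0.0518%) and 28 lower (0.242%) in EAE ROS+ of 11580 tested by the same test, on sums of many more UMIs. The gates did not overlap for 3960 genes (34.2%). Among the higher ones called were the neutrophil genes S100a9, Ngp and Camp. With cells holding other types' markers left out, 0 genes were called in either direction. An effect called in one set and not in the other is not shown to differ, so the difference was tested itself.

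The ROS gate difference itself was compared between members and other monocytes. Of 10287 genes tested with the library as a block, 3 had a higher gate difference in members (0.0292%) and 2 a lower one (0.0194%), by edgeR's quasi-likelihood test with adjusted p under 0.05. The higher ones were Ccl2 (1.23 ± 0.24, adjusted p = 0.00321), Saa3 (0.86 ± 0.18, adjusted p = 0.00604) and Ccl7 (2.26 ± 0.49, adjusted p = 0.0131), the last named after its values were seen. The lower ones were Cxcl11 (-1.12 ± 0.23, adjusted p = 0.00604) and Cxcl2 (-0.71 ± 0.16, adjusted p = 0.0242), which draws in neutrophils. At an unadjusted p under 0.05 there were 455 genes, and DESeq2 called 0. The chemokine list had 16 genes tested, of which 2 were called higher and 2 lower.

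Ccl2 was at 109 and 229 CPM in EAE ROS+ and 76.8 and 101 CPM in EAE ROS- cells outside the members, where its gate difference was 0.93. Its level was thus highest in members of EAE ROS+, at 781 and 506 CPM, and lowest in members of EAE ROS- 1. Saa3 outside the members stood at 2197 and 1409 CPM in EAE ROS+ and 500 and 689 CPM in EAE ROS-. In EAE ROS- libraries its level was lower in members than in others, and in EAE ROS+ libraries it was higher.

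Cxcl11 stood at 60.2 and 181 CPM in EAE ROS+ and 331 and 168 CPM in EAE ROS- members, against 23.6 and 56.0 CPM in EAE ROS+ and 31.2 and 30.9 CPM in EAE ROS- others. The gates overlapped in both sets. Cxcl2 stood at 1628 and 1846 CPM in EAE ROS+ and 2204 and 2168 CPM in EAE ROS- members, against 2575 and 2627 CPM in EAE ROS+ and 1549 and 2267 CPM in EAE ROS- others. Its level was lower in members than in others in both EAE ROS+ libraries.

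**Figure D5:**
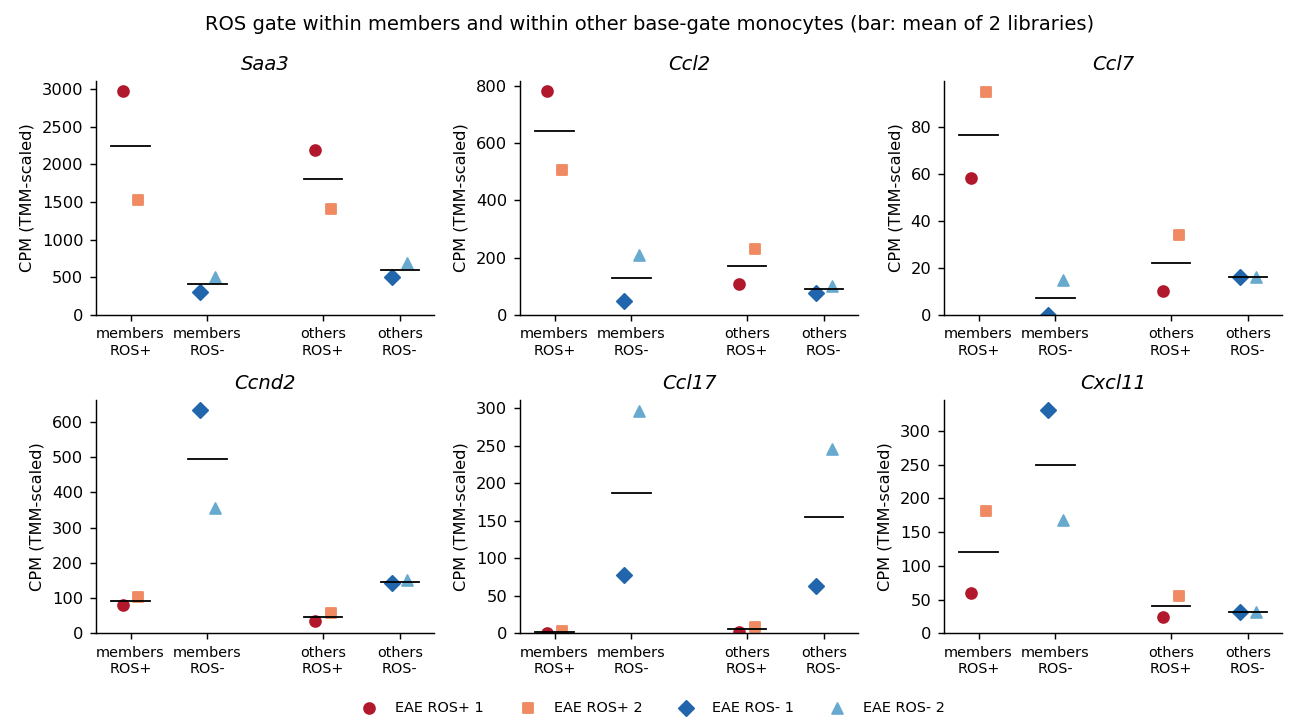
TMM-scaled CPM of 6 genes by ROS gate in members and in other base-gate monocytes, with 1 point per EAE library and a bar for the mean of 2 libraries. Saa3, Ccl2 and Ccl7 are higher in EAE ROS+ than in both EAE ROS- libraries among members, Ccnd2 and Ccl17 are lower, and Cxcl11 overlaps between the gates.

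These 5 calls rested on single libraries to different degrees. Without EAE ROS+ 1, Ccl2 (0.52) and all the others lost the call, with adjusted p from 0.48 to 1, and without EAE ROS+ 2 Saa3, Cxcl11 and Cxcl2 lost it (adjusted p from 0.535 to 1). Without EAE ROS- 1, Ccl7, Cxcl11 and Cxcl2 lost it (adjusted p from 0.121 to 0.603). Without EAE ROS- 2 all 5 kept it, and there were 29 higher and 10 lower genes. With the top 10% taken within each library instead of over the pool, 0 genes were called, and the log2 differences of Ccl2 and Saa3 were 1.12 and 0.81 (adjusted p = 0.553 and 0.216). With the top 5% in place of the top 10%, all 5 lost the call (adjusted p from 0.109 to 1), and Cxcl11 was at -0.04.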

How the data were processed

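The input was UMI counts, which the authors deposited as 1 matrix of genes by barcodes for each of 6 droplet libraries of transcript 3' ends. The submitters' processing notes name Cell Ranger 2.0.1, Seurat 3, R 3.4.2 and mm10 without roles, and the annotation and the calling of cells are not stated there.

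A barcode needed 200 genes or more and no more than 10% mitochondrial UMIs, and 1 barcode failed. Per library, UMIs were summed over members and over other base-gate cells, with a minimum of 20 cells a sum. The ROS gates were compared on these sums by edgeR 4.0.16 (R 4.3.3) with the quasi-likelihood F test, after TMM scaling and filterByExpr at a minimum count of 10, with 2 residual degrees of freedom. DESeq2 1.42.0 was an alternative. An SE is the size of the log2 fold change divided by the square root of F. These steps were checked on simulated counts. Python 3.11.15, numpy 2.4.6, pandas 2.3.3, scipy 1.17.1, scanpy 1.11.5 and matplotlib 3.10.9 were also used.

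The members, gene lists, tests and alternatives were chosen with earlier results of these data known. Genes named from the description were those outside the rule at 50 CPM or more with the same direction in all 4 libraries, the 20 highest and 10 lowest. From the tests they were up to 10 called genes per direction (5 for the difference between sets) with non-overlapping gates, or, where under 5 were called, the 5 with the smallest p, all at an average log2 CPM of at least 5. Replicates of a group differed by more than counting error (chi-square per degree of freedom from 5.79 to 48.2). Of 399 listed symbols all were matched, 17 by gene ID through the reference name table and the rest by the deposited symbol. Single values of some genes on the lists are not reported here.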

Additional observations from a re-analysis of the deposited data

Results flagged for a closer look

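The ROS gate difference of 5 genes differed between members and other base-gate monocytes in the test of that difference by edgeR. It was higher in members for Ccl2 (log2 1.23), Saa3 (0.86) and Ccl7 (2.26), and lower for Cxcl11 (-1.12) and Cxcl2 (-0.71). None of the 5 was called by DESeq2, with the top 10% taken within each library, with the top 5% or without EAE ROS+ 1 (adjusted p from 0.48 to 1 in that last fit). Ccl2 and Ccl7 encode ligands of Ccr2, a receptor that the base gate itself used. Between 49 members (Ccl7) and 349 members (Saa3) held UMIs of the 3 higher genes.

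Some microglial-gate cells of the EAE ROS- libraries also reached the members' score; EAE ROS+ 1 held 2 such cells, with 0 at the cut, and EAE ROS+ 2 held 0. In EAE ROS- 1, 22 of 180 such cells (12.2%, exact Clopper-Pearson 95% interval 7.82% to 17.9%) lay at or above the cut, and in EAE ROS- 2 it was 4 of 92 (4.35%, 1.20% to 10.8%). In healthy ROS- libraries it was 3 of 1620 (0.185%) and 0 of 192, which allows up to 1.90% by the same interval. The median microglial-gate cell held 5073 and 3905 UMIs in the EAE ROS- libraries, against 2232 and 3622.5 UMIs in the healthy ROS- libraries, and the part of depth in this difference was not tested. The order of the EAE ROS- libraries was the reverse of that of members among monocytes, where EAE ROS- 2 held the larger share.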

How the results depend on the processing

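The number of libraries limits these results, with 2 a gate, members from 23 to 332 cells a library and 150240 UMIs in the smallest sum. The difference of shares between gates ran from -1.71 points (without EAE ROS+ 2) to 9.52 points over the fits without 1 library. The count of genes 2-fold higher in members in every library lay between 39 and 77 over all alternatives (57 to 73 without 1 library). The count lower was 2 with the top 5%, 1 with a stricter base gate and 0 to 1 without 1 library.

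Within members, the gate gave 1 gene higher and 5 lower with DESeq2, 14 and 38 with no low count filter, 9 and 16 with the top 5%, 1 and 7 with the top 20%, 1 and 5 with the top 10% within each library, and 5 to 74 higher and 11 to 78 lower without 1 library. Leaving out cells with other types' markers, chosen after seeing the data, gave 0 lower. Within the others it gave 12 and 93 with DESeq2, 73 and 222 with no low count filter, 32 to 67 higher and 85 to 221 lower without 1 library, 17 lower with the top 20% or without the top 5% of UMIs, and 0 and 0 without cells with other types' markers. For the difference between the sets, DESeq2 and the top 10% within each library gave 0 and 0, the top 5% 1 and 0, the top 20% 5 and 4, and fits without 1 library 0 to 29 higher and 0 to 10 lower. It gave 1 lower without the top 5% of UMIs or without cells with other types' markers. Dusp2, at -1.17 in that test (adjusted p = 0.154), was at 1.13 with the top 5%. The cause of these changes was not tested, apart from fewer samples or other cells by construction.

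The labels do not say that a replicate number pairs libraries. Deviations of same-numbered libraries correlated at 0.139 over 3584 genes in members and 0.515 over 3374 in others, with only 2 pairs. With a replicate block, members gave 9 higher and 15 lower genes, others 27 and 100, and the difference between sets 3 and 3. The share difference within numbers, chosen after seeing the data, averaged 3.91 points.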
